A study of Mus musculus with 20 samples.

Results

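Complex I (NADH:ubiquinone oxidoreductase) is described here through 45 nuclear genes measured by RNA-seq in mouse gastrocnemius, the main calf muscle. Members were the genes named Nduf followed by a, b, c, s, v, ab or af and a number, with a protein-coding transcript and a mean of at least 1 FPKM (fragments scaled for transcript length and library size) over the 20 libraries. They are 37 subunits and 8 assembly factors (Ndufaf), out of 9696 genes that passed the same level filter and 31618 genes listed. No protein-coding gene with a matching name fell under the limit, the lowest member being Ndufaf2 at 1.87 FPKM. The names Ndufb4c and Ndufs6b also match the pattern but are processed pseudogenes and were left out. The protein-coding gene Ndufb1-ps, at 50.9 FPKM, carries a name outside the pattern and is given below as an outsider.

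All libraries came from gastrocnemius of male C57BL/6N mice, and the labels name no engineered allele and no age. The groups were tetrathiomolybdate (TM, a copper chelator) together with N-acetylcysteine (NAC, a cysteine precursor used as an antioxidant), TM alone, NAC alone, and Control, with 5 libraries in each. The treated libraries are labelled with 28 days of treatment, and the labels give no dose or route. Library totals ran from 54.7 M counts (NAC library 2) to 90.7 M counts (NAC library 4), and muscle fibre markers (10 of 10 tested, Ckm and Acta1 among them) summed to between 137052 and 198575 CPM in each library (CPM, counts scaled to a common library size).

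Complex I is the first enzyme of the mitochondrial respiratory chain: it takes electrons from NADH, passes them along iron-sulphur clusters to ubiquinone, and pumps protons across the inner membrane. Its matrix arm holds the NADH site and the clusters, its membrane arm holds the pumps, and its core subunits are encoded partly in the nucleus and partly in mitochondrial DNA, with many nuclear accessory subunits around them. Assembly factors build the modules of the enzyme and are not part of the finished complex. Muscle depends on it for sustained ATP supply, and inherited loss of subunits or assembly factors causes mitochondrial disease in humans.

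The promoters of 40 of the 45 members matched RefSeq windows of 250 bases before to 50 after a transcription start (GRCm38.p6), 42 windows in all because some genes have more than 1 start. They are shown because the subunits moved together between libraries, and 4 of them stand for the members that recur below. The motifs searched, on both strands, were CGCATGCG (NRF1), CCGGAAG (ETS, the family of GABP), AAGATGGCG (YY1) and TCAAGGTCA (ERR), and capitals mark a match. Ndufa12 (chr10:94198785-94199064, plus strand) holds none of them, Ndufs3 (chr2:90904692-90904971, minus strand) holds a pair of ETS matches, Ndufaf5 (chr2:140170396-140170675, plus strand) holds an NRF1 match and Ndufaf8 (chr11:120098684-120098963, plus strand) holds an ETS and a YY1 match. Each is printed 5′ to 3′ over 280 bases, ending 30 bases into the transcript.
Ndufa12: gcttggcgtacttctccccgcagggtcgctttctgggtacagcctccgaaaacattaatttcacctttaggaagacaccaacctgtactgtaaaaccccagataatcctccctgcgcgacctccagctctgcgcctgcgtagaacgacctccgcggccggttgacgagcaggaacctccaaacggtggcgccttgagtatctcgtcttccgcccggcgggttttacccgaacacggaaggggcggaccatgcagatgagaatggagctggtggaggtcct
Ndufs3: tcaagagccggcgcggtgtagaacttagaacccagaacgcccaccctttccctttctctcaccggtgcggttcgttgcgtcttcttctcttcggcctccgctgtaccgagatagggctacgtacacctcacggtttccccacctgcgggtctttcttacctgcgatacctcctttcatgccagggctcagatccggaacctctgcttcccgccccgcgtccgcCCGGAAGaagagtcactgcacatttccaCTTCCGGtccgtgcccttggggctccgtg
Ndufaf5: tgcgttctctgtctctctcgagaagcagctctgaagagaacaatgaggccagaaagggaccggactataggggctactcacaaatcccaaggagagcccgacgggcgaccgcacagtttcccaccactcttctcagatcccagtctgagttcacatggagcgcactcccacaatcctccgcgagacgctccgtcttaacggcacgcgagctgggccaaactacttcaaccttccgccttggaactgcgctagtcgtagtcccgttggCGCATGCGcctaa
Ndufaf8: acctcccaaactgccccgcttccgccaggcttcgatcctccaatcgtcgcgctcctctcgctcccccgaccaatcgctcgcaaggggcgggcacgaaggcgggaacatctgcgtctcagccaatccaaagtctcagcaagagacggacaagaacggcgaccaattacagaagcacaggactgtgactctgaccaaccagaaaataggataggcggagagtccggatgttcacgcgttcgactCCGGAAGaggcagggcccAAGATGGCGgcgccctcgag

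The NRF1 letters were in 4 of the 42 member windows (9.52%; Ndufa8, Ndufa11, Ndufaf4 and Ndufaf5), against 1.87% of 32851 windows of the same length over all genes. The YY1 letters were in 6 (14.3%; Ndufa9, Ndufc1, Ndufs4, Ndufs6, Ndufs7 and Ndufaf8), against 1.40% of all windows, and all 6 began 10 to 35 bases downstream of the start. The ETS letters were in 6 windows (14.3%; Ndufb6, Ndufb7, Ndufs3, Ndufs8, Ndufaf1 and Ndufaf8), against 8.86%. The ERR letters were in 0 member windows, against 0.423%. A match is a run of letters and was not tested for binding.

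Subunit transcripts stood well above assembly factor transcripts on the length-scaled FPKM level. Over the 20 libraries the median subunit averaged 72.5 FPKM, and the means of the subunits reported here ran from 8.49 FPKM (Ndufb2) to 222 FPKM (Ndufa4). Among assembly factors the means ran from 1.87 FPKM (Ndufaf2) to 21.4 FPKM (Ndufaf1), with a median of 9.67 FPKM. Ndufa4, named for complex I but known now as a subunit of cytochrome c oxidase, averaged 225 ± 7.82 FPKM after TM+NAC, 226 ± 18.4 after TM, 217 ± 22.2 after NAC and 219.6 ± 26.8 in Control (SD, n = 5 each). Ndufb2, a small membrane arm subunit, averaged 9.28 ± 0.786, 8.20 ± 1.99, 7.38 ± 2.35 and 9.12 ± 2.41 FPKM in the same order of groups. For both genes the mean was lowest after NAC, and on the counts below neither passed a test. The place of Ndufb2 as lowest subunit holds for FPKM only, and its principal transcript is long, at 4371 nt. On CPM, not scaled for length, it averaged 63.0 in Control, beside 62.5 for Ndufa3, whose Control mean was 49.8 FPKM. The 7 mitochondrially encoded subunits lay far higher, from 3474 FPKM (mt-Nd3) to 14298 FPKM (mt-Nd1).

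**Figure D1:**
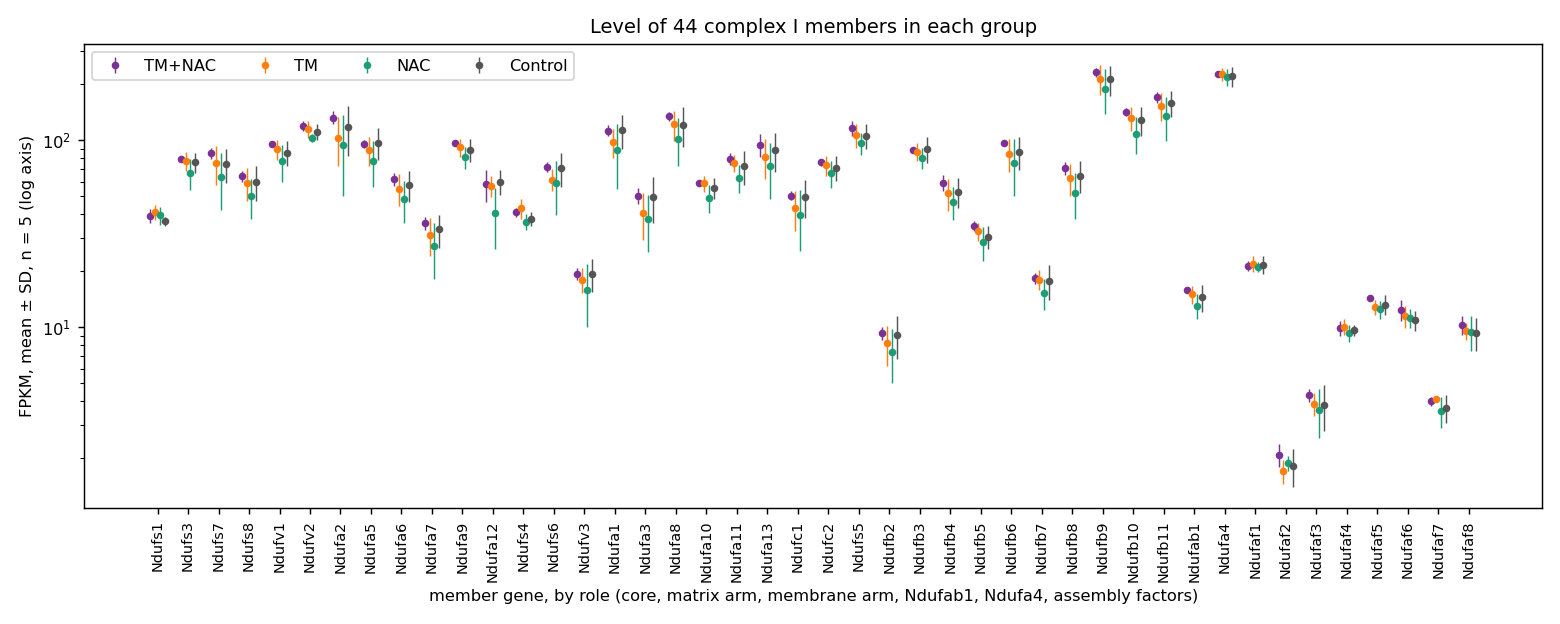
Mean FPKM ± SD (log axis, 5 libraries per group) of 44 members in TM+NAC, TM, NAC and Control, ordered by role. The subunits drawn span 8.49 to 222 FPKM and the 8 assembly factors at the right 1.87 to 21.4 FPKM, while the 4 groups lie close together for each gene.

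No member passed in any of the 6 comparisons, at an adjusted p under 0.05 by edgeR's quasi-likelihood test over the 9696 genes. These were TM vs Control, NAC vs Control, TM+NAC vs Control, TM+NAC vs TM, TM+NAC vs NAC, and the interaction, the effect of TM in the presence of NAC minus its effect without NAC. DESeq2 and limma also called 0 of 45 members in each. What the members showed was a direction shared by nearly all subunits in NAC vs Control and TM+NAC vs NAC, with 1 NAC library far from the rest. These are described first. A shared direction with smaller medians was also present without the NAC libraries, in TM vs Control (32 of 37 negative, median −0.06) and TM+NAC vs TM (29 of 37 positive, median 0.06). About 50% of tested genes went the same way in each (50.2% and 50.6%).

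After NAC alone, 36 of 37 subunits and 8 of 8 assembly factors had a negative log2 fold against Control, where 50.0% of all tested genes did. The median log2 fold was −0.28 over the subunits and −0.11 over the assembly factors, against 0.00 over all tested genes. None passed the adjusted threshold, which 0.217% of tested genes did. At an unadjusted p under 0.05, 14 of 37 subunits and 0 of 8 assembly factors were lower after NAC, against 3.52% of tested genes. DESeq2 gave 16 and 0, against 3.6% of tested genes, and limma on FPKM 1 and 0, against 1.23%. The subunits moved together from library to library, so these counts are not independent of one another. In whole muscle, fewer fibres rich in mitochondria and less RNA of these genes per fibre cannot be told apart. Without NAC library 4, 37 of 37 subunits were still negative (51.9% of tested genes), but the median was −0.17 and the count with an unadjusted p under 0.05 was 2 (2.17% of tested genes). Without Control library 2 the median was −0.19 and that count was 1 (1.68% of tested genes), and without both libraries, a choice made after seeing the data, the median was −0.09. Without Control library 4 the median was −0.35 and the count 24 (5.09% of tested genes). The assembly factor median was −0.02 without NAC library 4 and 0.03 without both libraries. Leaving out NAC library 4 brought the fold over 1.5 times nearer to 0, or turned its sign, for 27 of 37 subunits and 5 of 8 assembly factors. The share over all tested genes was not counted, so this is not a trait of the members. Among the 5 assembly factors, Ndufaf2 and Ndufaf6 had folds near 0 with every library in, at −0.01 and −0.02.

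NAC library 4 stood apart from the other 19 libraries. It was the lowest of the 20 for 34 of 37 subunits and 3 of 8 assembly factors, against 26.9% of tested genes. The mean deviation of the 37 subunits from the control mean, on log2(CPM + 0.5), was −0.84 there, and that of the 8 assembly factors −0.22. In the other 4 NAC libraries the subunit deviation was −0.34, 0.04, −0.26 and −0.10 (libraries 1, 2, 3 and 5). Control library 2 was the opposite extreme, the highest of the 20 for 29 of 37 subunits and 4 of 8 assembly factors, against 9.3% of tested genes, with a subunit deviation of 0.29. The other Control libraries lay at 0.10, −0.11, −0.27 and 0.00 (libraries 1, 3, 4 and 5), so the NAC and Control libraries overlapped.

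**Figure D2:**
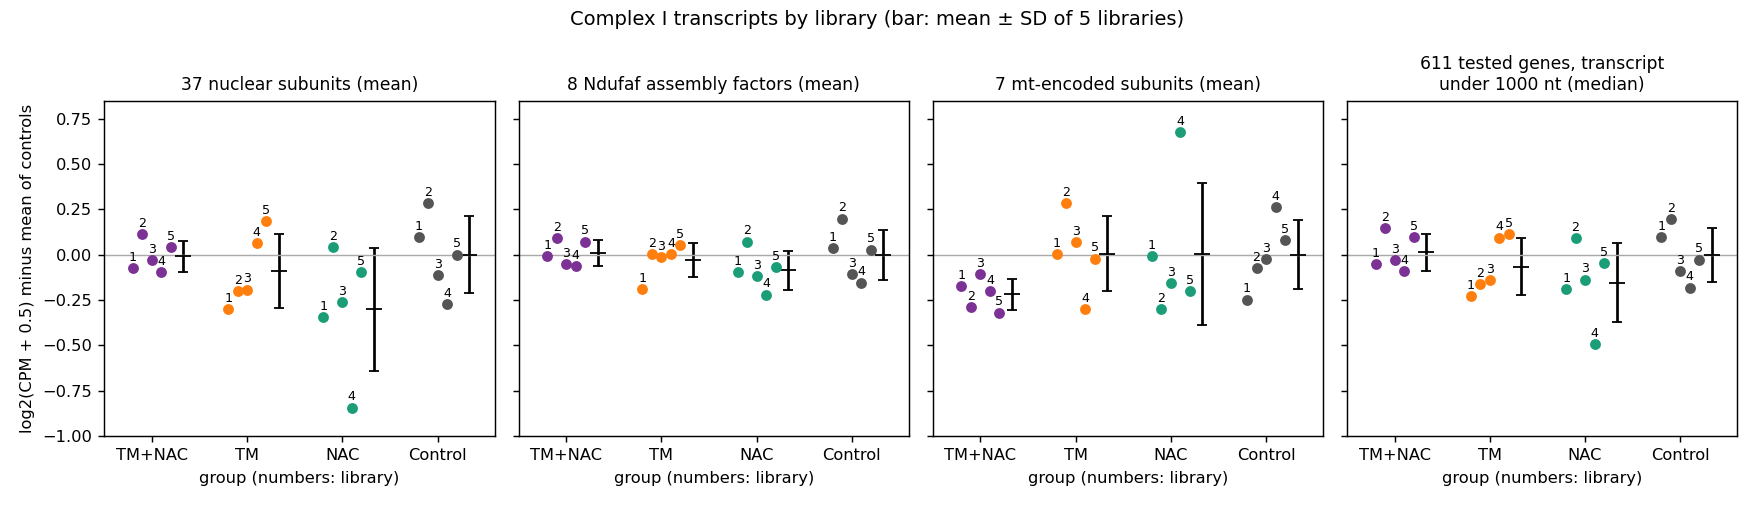
Mean deviation from the control mean, on log2(CPM + 0.5), of the 37 subunits, the 8 assembly factors and the 7 mitochondrially encoded subunits, and the median deviation of 611 tested genes with short transcripts, in each library by group. NAC library 4 lies at −0.84 for the nuclear subunits and at 0.68 for the mitochondrially encoded ones, and it is the lowest library for the short-transcript genes too, at −0.49.

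Other measures moved with the subunits in NAC library 4. It was the deepest library, with 20.3% of its counts from mitochondrial genes, and the other libraries had 13.1 to 18.9%. Short transcripts were low in it as a class: the 611 tested genes with a principal transcript under 1000 nt had a median deviation of −0.49, and the 8051 longer ones 0.05. In Control library 2 the short genes had a median deviation of 0.20, the highest of the 20 libraries. Its class medians went from 0.21 under 500 nt to −0.13 at 5000 nt and over. Complex I subunits are short, 21 of 37 being under 1000 nt, against 2 of 8 assembly factors and 7.05% of the 8662 tested genes with a known length. After NAC, 510 of the 611 short genes had a negative fold, with a median of −0.16, and subunits under and over 1000 nt had medians of −0.30 and −0.23. An offset by length class, added after seeing the data, left a subunit median of −0.15, with 34 of 37 negative, and an assembly factor median of −0.03. With that offset and NAC library 4 left out, 37 of 37 subunits were negative with a median of −0.09. The part of length and depth in the result was otherwise not tested.

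**Figure D3:**
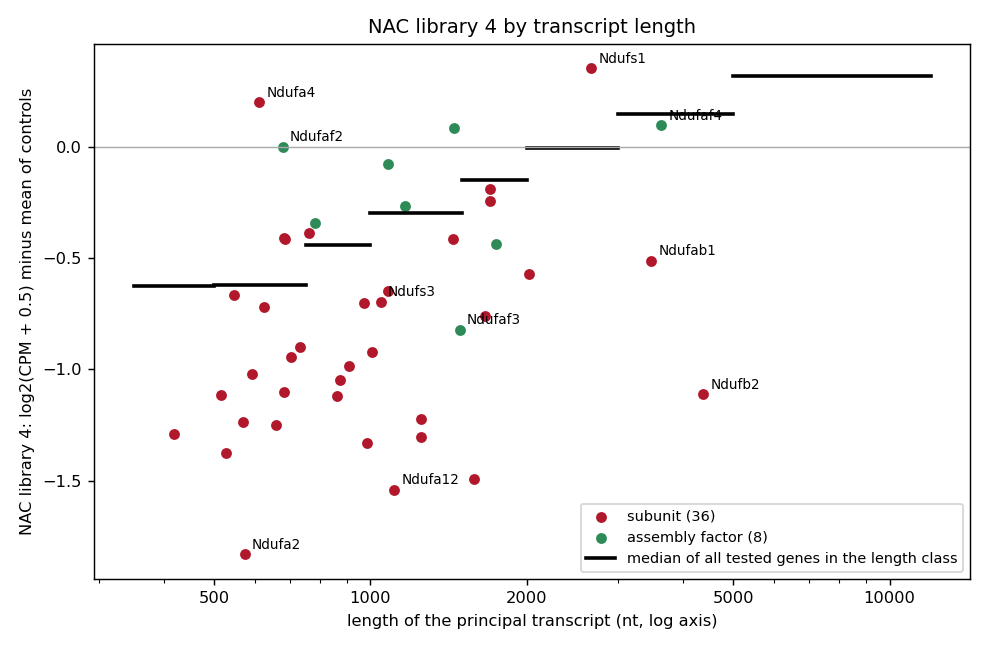
Deviation of 44 members in NAC library 4 from the control mean, on log2(CPM + 0.5), against the length of the principal transcript (nt, log axis), with black lines for the median of all tested genes in each length class. The class medians run from −0.63 under 500 nt to 0.32 at 5000 nt and over; many subunits lie under the line of their class, Ndufa12 at −1.54 and Ndufa2 at −1.83 among them, while Ndufs1 lies at 0.35.

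The 7 nuclear core subunits carry the electron path. Ndufv1 binds the flavin that accepts electrons from NADH, and its level was 234, 270, 245, 162 and 279 CPM in NAC libraries 1 to 5, against 282, 332, 246, 248 and 276 CPM in Control libraries 1 to 5. The groups overlapped, with NAC library 4 lowest and Control library 2 highest, and the log2 fold was −0.22 ± 0.12 (SE; adjusted p = 0.638), and −0.10 without NAC library 4. Ndufv2, its iron-sulphur partner, averaged 260 ± 10.7 CPM after NAC and 292 ± 21.6 CPM in Control (SD, n = 5 each). Its log2 fold was −0.17 ± 0.08, and here NAC library 3, not 4, was the lowest.

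Ndufs3, a core subunit of the arm leading to ubiquinone, had 168, 192, 178, 125 and 193 CPM in the NAC libraries, against 201, 238, 194, 185 and 199 CPM in the Control libraries. NAC library 4 was far below the rest, and NAC libraries 2 and 5 lay within the range of Control. The log2 fold was −0.25 ± 0.10 (adjusted p = 0.638), and −0.15 without NAC library 4.

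Ndufs7, which holds the last cluster before ubiquinone, averaged 128 ± 41.5 CPM after NAC and 157 ± 29.8 CPM in Control, with a log2 fold of −0.30 ± 0.20. The spread came largely from NAC library 4 at 61.4 CPM, and without it the fold was −0.12, over 1.5 times smaller. Ndufs8, another iron-sulphur subunit, averaged 75.8 ± 16.7 CPM after NAC and 95.0 ± 17.7 CPM in Control, a log2 fold of −0.33 ± 0.15, and −0.20 without NAC library 4.

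Ndufs1, the largest nuclear subunit and a carrier of several clusters, was the exception. It had 368, 342, 347, 469 and 369 CPM after NAC, against 345, 350, 378, 394 and 371 CPM in Control. NAC library 4 was here the highest of all 20 libraries, and of the other NAC libraries 1, 3 and 5 lay within the Control range and library 2 just below it. The log2 fold was 0.04 ± 0.08 (adjusted p = 0.856), and −0.04 without NAC library 4.

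**Figure D4:**
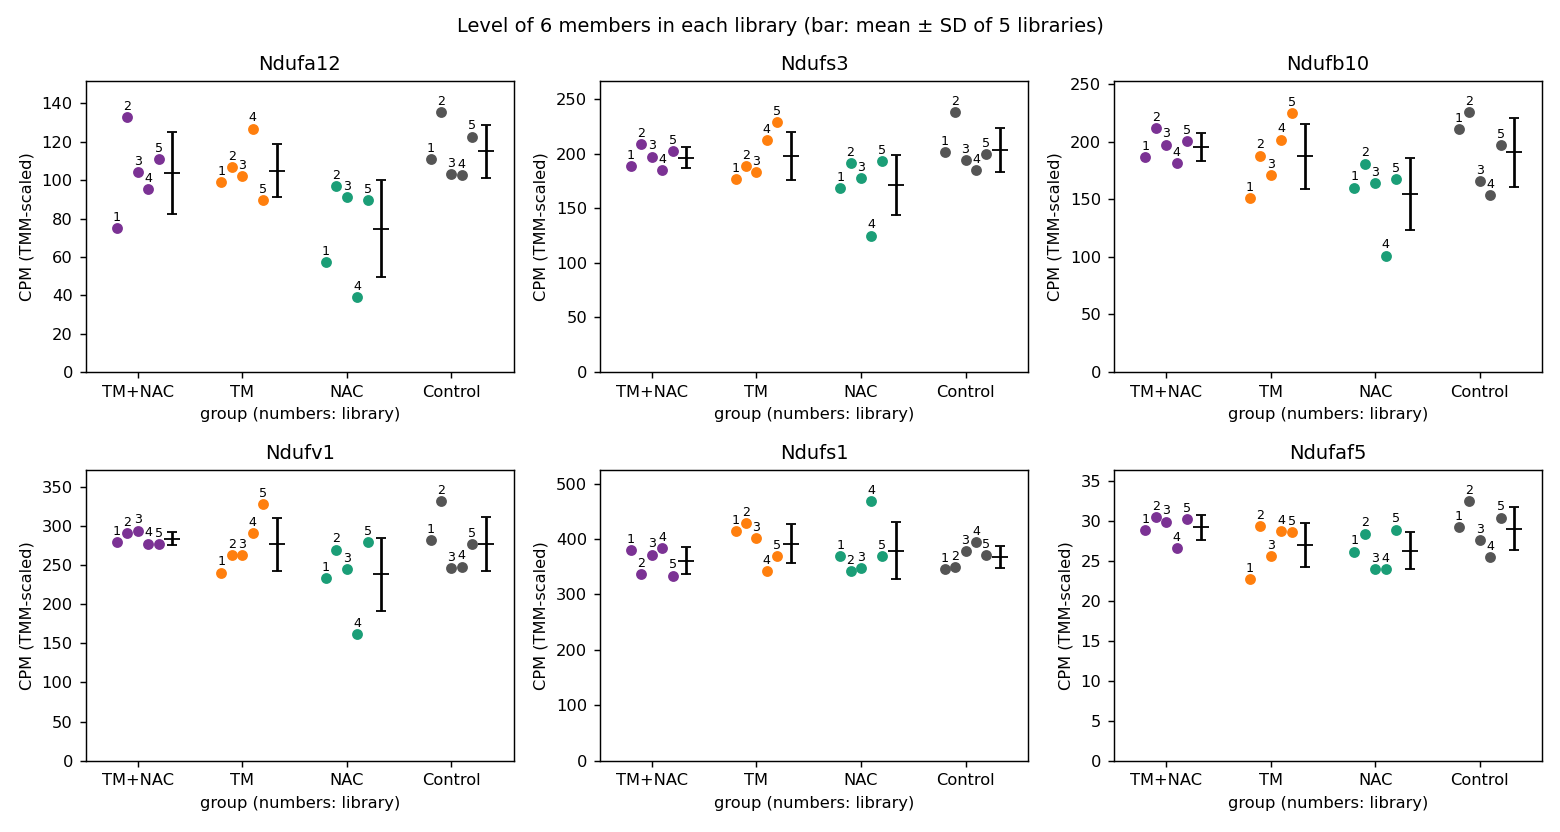
CPM (TMM-scaled; axes from 0) of Ndufa12, Ndufs3, Ndufb10, Ndufv1, Ndufs1 and Ndufaf5 in every library, numbered, with the mean ± SD of each group. NAC library 4 is the lowest point for Ndufa12 at 38.9 CPM and for Ndufb10 at 101 CPM, and the highest for Ndufs1 at 469 CPM.

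Accessory subunits of the matrix arm had the most negative median, −0.34 over 9 genes, all 9 negative after NAC. Ndufa12, whose place in the growing enzyme is held in human cells by its relative Ndufaf2, had 57.3, 96.9, 91.2, 38.9 and 89.8 CPM in the NAC libraries, against 111, 135, 103, 103 and 123 CPM in the Control libraries. All 5 NAC libraries lay below all 5 Control libraries, and it was the 1 member of 45 for which this held, against 0.289% of tested genes. Its log2 fold was −0.62 ± 0.19, the smallest p of any member (adjusted p = 0.477), and −0.45 without NAC library 4.

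Reads of Ndufa12 may be shared with a processed copy, Ndufa12-ps, counted at 85.0 FPKM. That copy had 68.6, 59.4, 38.7, 48.6 and 39.2 CPM after NAC, against 56.1, 34.3, 35.5, 31.8 and 24.8 CPM in Control, a log2 fold of 0.48 ± 0.29, opposite in sign to Ndufa12. NAC library 1 was the highest NAC library for the copy and the next to lowest for Ndufa12. The division of reads between them by the authors' counting is not known here, so the value of Ndufa12 is uncertain.

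Ndufa5, at the hinge of the matrix arm, had 87.1, 127, 91.2, 58.3 and 106 CPM after NAC, against 132, 151, 113, 94.7 and 123 CPM in Control. Its groups overlapped and its log2 fold was −0.39 ± 0.16 (adjusted p = 0.638). Ndufa9, a nucleotide-binding subunit near the ubiquinone site, had 188, 218, 200, 171 and 223 CPM after NAC, against 226, 271, 198, 221 and 230 CPM in Control, and a log2 fold of −0.20 ± 0.09. Its NAC libraries 1 and 4 lay below every Control library and the other 3 did not. Ndufs4, whose loss causes Leigh syndrome, was little displaced at −0.12 ± 0.08, and NAC library 4, at 107 CPM, was still its lowest library. Ndufa2, a small subunit with a thioredoxin-like fold, had 51.4, 99.8, 63.1, 22.0 and 76.9 CPM after NAC, against 104, 109, 76.1, 50.4 and 74.6 CPM in Control. Its log2 fold was −0.40 ± 0.28, and its deviation of −1.83 in NAC library 4 was the lowest of the 45 members there.

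Accessory subunits of the membrane arm were negative throughout, 9 of 9 in the proximal part, with a median of −0.32, and 10 of 10 in the distal part, with a median of −0.28. The folds ran from −0.45 (Ndufa3) to −0.16 (Ndufc2) in the proximal part and from −0.37 (Ndufb2) to −0.16 (Ndufb5) in the distal part. Ndufa10, a subunit of the proximal part, had 199, 190, 195, 152 and 221 CPM after NAC, against 215, 261, 202, 229 and 230 CPM in Control. NAC library 5 alone reached into the Control range, and the log2 fold was −0.25 ± 0.09 (adjusted p = 0.588). Ndufb3 and Ndufb10, of the distal part, had log2 folds of −0.23 ± 0.09 and −0.30 ± 0.14. For Ndufb10 the NAC libraries held 160, 181, 164, 101 and 168 CPM and the Control libraries 211, 225, 166, 154 and 197 CPM, so the groups overlapped.

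Ndufab1, the mitochondrial acyl carrier protein, which serves fatty acid synthesis as well as complex I, had a log2 fold of −0.21 ± 0.10. Ndufa4 had 308, 374, 319, 427 and 345 CPM after NAC, against 356, 432, 359, 346 and 370 CPM in Control. NAC library 4 was the highest NAC library for this gene, the groups overlapped, and the log2 fold was −0.07 ± 0.09 (adjusted p = 0.762). The outsider Ndufb1-ps had a log2 fold of −0.50 ± 0.19 (adjusted p = 0.588), with 62.1, 86.1, 56.5, 35.0 and 62.5 CPM after NAC, against 104, 85.2, 95.0, 57.6 and 86.9 CPM in Control. It was also below the Control mean in 5 of 5 TM+NAC libraries (log2 fold −0.31 ± 0.18) and 5 of 5 TM libraries (−0.46 ± 0.19), and the groups overlapped in each comparison.

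The 8 assembly factors were nearer to zero than the subunits. Ndufaf1, which belongs in human cells to an assembly complex with Ecsit, Acad9 and Tmem126b, had 39.6, 35.7, 34.1, 42.2 and 34.8 CPM after NAC, against 35.7, 44.0, 38.3, 39.8 and 41.5 CPM in Control. NAC library 4 was the highest NAC library, the groups overlapped, and the log2 fold was −0.10 ± 0.08. Ndufaf5, an enzyme that modifies Ndufs7, had 26.1, 28.4, 23.9, 24.0 and 28.9 CPM after NAC, against 29.2, 32.5, 27.6, 25.4 and 30.4 CPM in Control. Its log2 fold of −0.14 ± 0.09 had the smallest p of the 8 (adjusted p = 0.641), and NAC library 4 lay with NAC library 3, not apart.

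Ndufaf3 and Ndufaf4 act together on the module that binds ubiquinone. Ndufaf3 had 7.56, 9.93, 7.22, 4.51 and 9.23 CPM after NAC, against 10.4, 11.4, 7.38, 5.74 and 8.06 CPM in Control, a log2 fold of −0.16 ± 0.19, and −0.01 without NAC library 4. Ndufaf4 had 44.1, 36.7, 40.0, 49.3 and 43.3 CPM after NAC, against 43.6, 42.0, 49.6, 47.7 and 48.1 CPM in Control, a log2 fold of −0.11 ± 0.09. NAC library 4 was thus the lowest of the NAC libraries for Ndufaf3 and the highest for its partner.

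Ndufaf7, a methyltransferase, averaged 14.7 ± 2.64 CPM after NAC and 16.0 ± 2.33 CPM in Control, a log2 fold of −0.12 ± 0.11, and −0.04 without NAC library 4. Ndufaf2 averaged 6.59 ± 0.724 CPM after NAC and 6.64 ± 1.36 CPM in Control, and Ndufaf6 16.4 ± 1.97 and 16.6 ± 1.95 CPM, with log2 folds of −0.01 ± 0.15 and −0.02 ± 0.12. Ndufaf8, a partner of Ndufaf5, averaged 9.28 ± 1.83 CPM after NAC and 9.56 ± 1.70 CPM in Control, a log2 fold of −0.04 ± 0.14. The sign of Ndufaf2, Ndufaf6 and Ndufaf8 changed under several alternatives, and none of these 4 genes differed beyond its spread.

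The difference between subunits and assembly factors was given by library rather than tested. The subunit mean minus the assembly factor mean averaged −0.21 ± 0.25 after NAC and 0.00 ± 0.08 in Control on log2(CPM + 0.5), and −0.11 ± 0.11 after NAC without library 4 (n = 4). It was −0.62 in NAC library 4, and the values of the 2 groups overlapped. The median within-group SD of a subunit on this scale was 0.10 after TM+NAC, 0.22 after TM, 0.35 after NAC (0.16 without library 4) and 0.24 in Control. For an assembly factor it was 0.11, 0.16, 0.16 and 0.18 in the same order.

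**Figure D5:**
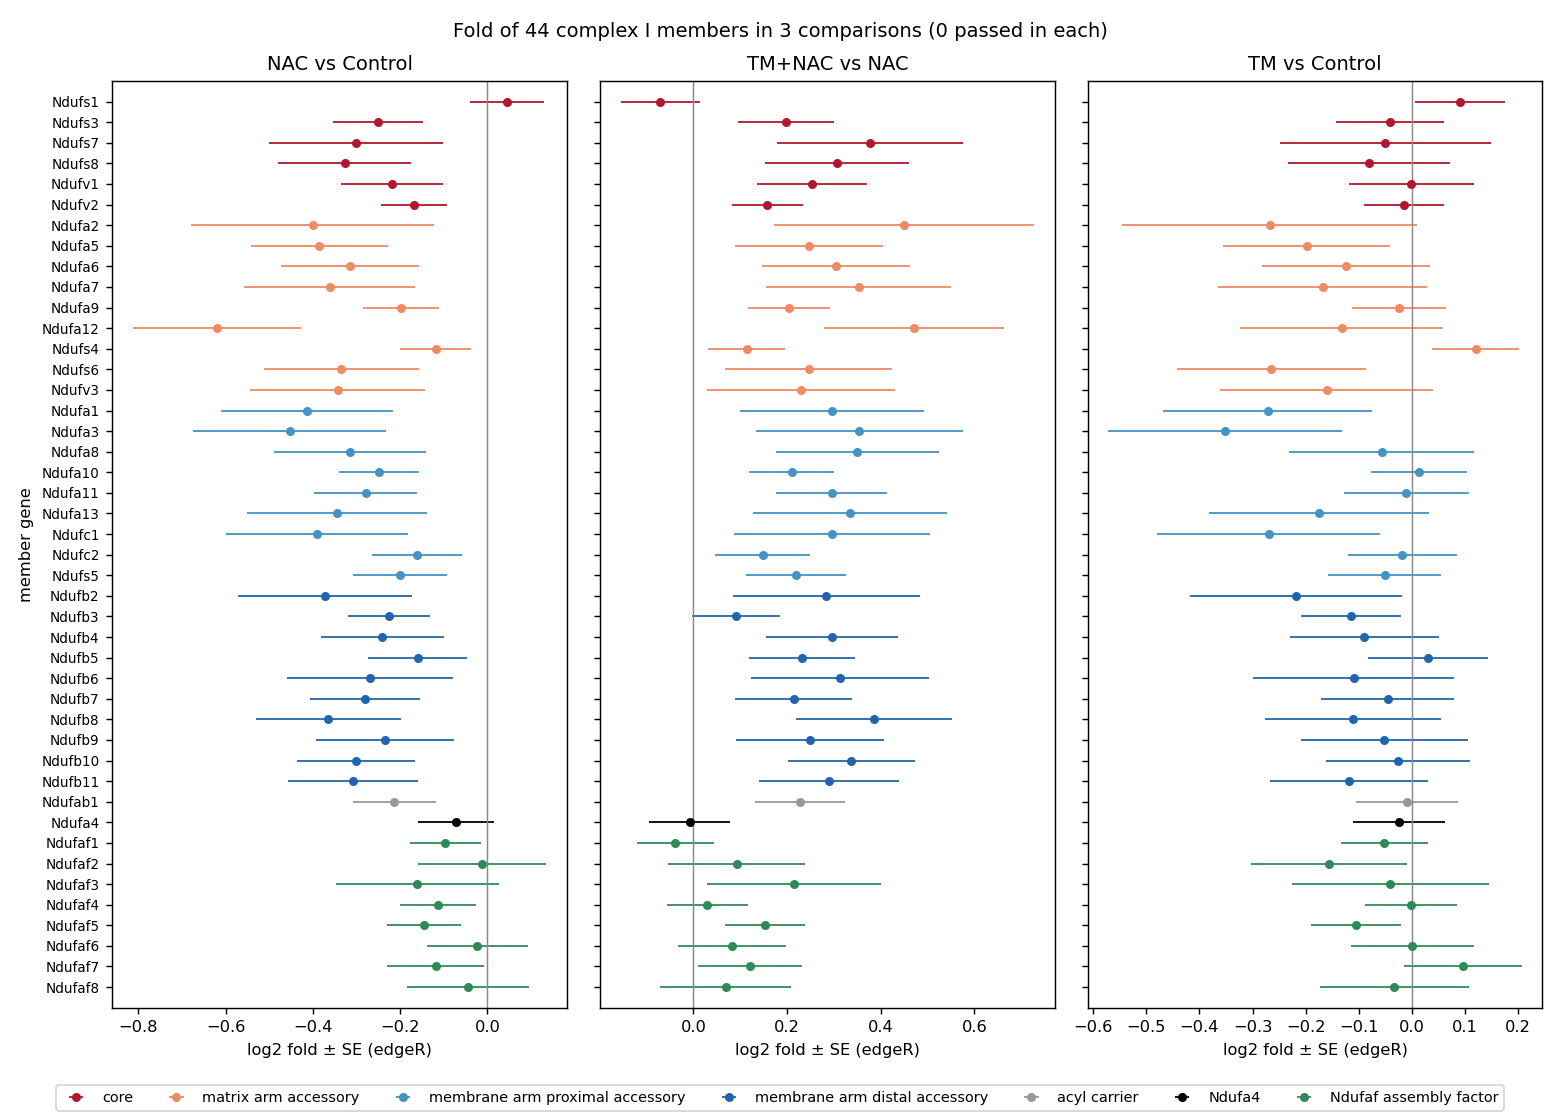
Log2 fold ± SE of 44 members by edgeR in NAC vs Control, TM+NAC vs NAC and TM vs Control, coloured by role. Of the 36 subunits drawn, 35 lie left of 0 in NAC vs Control and 34 lie right of it in TM+NAC vs NAC, while the assembly factors lie nearer to 0.

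Against NAC alone, TM+NAC gave the mirror direction, and both comparisons use the same NAC libraries. In TM+NAC vs NAC, 35 of 37 subunits and 7 of 8 assembly factors had a positive log2 fold, against 49.6% of tested genes, with medians of 0.25 and 0.09, against −0.00 over all tested genes. None passed (0.0309% of tested genes did), and 11 subunits and 0 assembly factors were higher at an unadjusted p under 0.05, against 4.98% of tested genes. DESeq2 gave 13 and 0, against 5.48% of tested genes, and limma on FPKM 21 and 1, against 11.0%. Of the 611 short-transcript genes, 482 had a positive fold here too, with a median of 0.16. With the offset by length class the subunit median was 0.16 and the assembly factor median −0.01. The subunit median stayed positive in every alternative run, and was lowest, at 0.09, with that offset and NAC library 4 left out. Without NAC library 4, 37 of 37 subunits were positive (51.5% of tested genes) with a median of 0.15, and 0 of 37 had an unadjusted p under 0.05 (2.56% of tested genes).

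Ndufb10 had 187, 212, 197, 181 and 200 CPM in the TM+NAC libraries, against 160, 181, 164, 101 and 168 CPM in the NAC libraries. The lowest TM+NAC library and the highest NAC library nearly touched, and the log2 fold was 0.34 ± 0.14 (adjusted p = 0.409). Ndufa11, a membrane arm subunit, had 91.3, 111, 97.2, 91.7 and 101 CPM after TM+NAC, against 82.7, 89.5, 81.0, 60.3 and 87.4 CPM after NAC. Its groups did not overlap, and the log2 fold was 0.29 ± 0.12.

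Ndufab1 had 122, 127, 125, 121 and 121 CPM after TM+NAC, against 103, 117, 105, 84.7 and 116 CPM after NAC, and Ndufa9 likewise did not overlap. Their log2 folds were 0.23 ± 0.10 and 0.20 ± 0.09. These 4 genes were the members of 45 whose every TM+NAC library lay above every NAC library, against 1.44% of tested genes. Ndufa12, at 75.0, 133, 104, 95.3 and 111 CPM after TM+NAC, overlapped with NAC through its libraries 1 and 4 and had a log2 fold of 0.47 ± 0.19. Reads shared with Ndufa12-ps would bear on this value as well. Ndufs1 and Ndufa4 were the 2 subunits with a negative fold, −0.07 ± 0.08 and −0.01 ± 0.09, and Ndufaf1 was the assembly factor with one, −0.04 ± 0.08.

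Against Control, TM+NAC gave folds close to 0. Of the 37 subunits 22 had a negative fold and of the 8 assembly factors 2, against 52.1% of tested genes, and the medians were −0.01 and 0.02, against −0.01 over all tested genes. None passed (0.351% of tested genes did), and 0 of 45 reached an unadjusted p under 0.05 (6.38% of tested genes did) by edgeR, DESeq2 or limma. The smallest p among the members belonged to Ndufaf1, with 39.3, 36.2, 37.5, 35.4 and 33.1 CPM after TM+NAC, against 35.7, 44.0, 38.3, 39.8 and 41.5 CPM in Control. Its groups overlapped, and the log2 fold was −0.13 ± 0.08 (adjusted p = 0.947). Ndufb3 at −0.13 ± 0.09, Ndufaf4 at −0.08 ± 0.09 and Ndufa4 at −0.08 ± 0.09 were among the next. On FPKM the subunit median was 0.11, beside 0.09 over all tested genes, so relative to that shift the subunits stayed near the rest of the genes. Without Control library 2 the subunit median turned to 0.08 on counts.

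After TM alone, the subunits leaned slightly below Control. Of the 37 subunits 32 and of the 8 assembly factors 6 had a negative fold, against 50.2% of tested genes, with medians of −0.06 and −0.04, and 0.0% of tested genes passed. The 611 short-transcript genes leaned the same way, 455 of them with a negative fold and a median of −0.07. No member reached an unadjusted p under 0.05 (3.37% of tested genes did), by edgeR, DESeq2 or limma. The lean depended on Control library 2, without which the subunit median was 0.02. On FPKM the subunit median was 0.01, but it was not set against the median of all tested genes on that scale. Ndufaf4, for example, averaged 46.2 CPM in TM and in Control, but 10.1 FPKM after TM and 9.61 FPKM in Control. The FPKM value therefore cannot show whether the lean was lost. Ndufa3, a small membrane arm subunit, had the smallest p, with 36.1, 38.4, 43.0, 62.2 and 65.4 CPM after TM, against 75.0, 79.2, 61.9, 36.9 and 59.7 CPM in Control. Only TM library 1 lay outside the Control range, just below Control library 4, and the log2 fold was −0.35 ± 0.22 (adjusted p = 0.999).

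TM libraries 4 and 5 were above TM libraries 1 to 3 for the subunits as a whole, with deviations of 0.06 and 0.18, against −0.30, −0.20 and −0.19. The short-transcript genes split the TM libraries the same way, at 0.09 and 0.11, against −0.23, −0.16 and −0.14. Ndufs6 (−0.27 ± 0.18), Ndufa1 (−0.27 ± 0.20) and Ndufc1 (−0.27 ± 0.21) followed Ndufa3. Ndufs4 was the exception among the 5 smallest p values, with a positive log2 fold of 0.12 ± 0.08.

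TM+NAC vs TM gave small positive folds, 29 of 37 subunits and 5 of 8 assembly factors, against 50.6% of tested genes, with a median of 0.06 for each class. Of the 611 short-transcript genes 459 had a positive fold, with a median of 0.09. Without TM library 1 the medians were 0.00 for subunits and −0.01 for assembly factors, with the offset by length class 0.00 and −0.03, and without TM library 5 the subunit median was 0.14. None passed (0.0309% of tested genes did) and 0 of 45 had an unadjusted p under 0.05 (5.19% of tested genes did) by edgeR, DESeq2 or limma. Ndufaf2 had the smallest p, with 6.50, 7.81, 6.46, 5.97 and 8.40 CPM after TM+NAC, against 5.20, 4.79, 6.45, 6.64 and 6.73 CPM after TM. Its groups overlapped, at a log2 fold of 0.24 ± 0.15 (adjusted p = 0.939). Ndufs4 (−0.12 ± 0.08), Ndufs1 (−0.12 ± 0.08), Ndufaf5 (0.11 ± 0.09) and Ndufa3 (0.25 ± 0.22) followed, in both directions.

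The interaction was positive for 35 of 37 subunits and 8 of 8 assembly factors, against 49.4% of tested genes, with medians of 0.38 and 0.09, against −0.00 over all tested genes. None passed (0.0103% of tested genes did), and 3 subunits and 1 assembly factor were higher at an unadjusted p under 0.05, against 3.51% of tested genes. These were Ndufa3 (0.71 ± 0.31), Ndufa12 (0.60 ± 0.27), Ndufb8 (0.50 ± 0.23) and Ndufaf5 (0.26 ± 0.12), each with an adjusted p of 0.597, followed by Ndufa1 (0.57 ± 0.28). The value of Ndufa12 is uncertain here too, as its reads may be shared with Ndufa12-ps. DESeq2 gave 6 and 1, against 3.8% of tested genes, and limma 3 and 0, against 3.12%. Without NAC library 4 the subunit median was 0.24, and without Control library 2 it was 0.29, and in each case no member had an unadjusted p under 0.05 (4.86% and 4.61% of tested genes did). The short-transcript genes had a median interaction of 0.24 with every library in.

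The mitochondrially encoded subunits stood opposite to the nuclear ones in NAC library 4. There, where the nuclear subunits were lowest, they were highest, with a mean deviation of 0.68 and all 7 above the control mean. Over the group, NAC vs Control gave a median log2 fold of 0.01, with 2 of 7 negative. Without NAC library 4, 7 of 7 were negative with a median of −0.17, as low as the nuclear subunits without it. In TM+NAC vs Control 7 of 7 were negative, with a median of −0.22 and none passing. The values of mt-Nd6, a membrane arm subunit, were 3553, 3094, 3463, 3333 and 3108 CPM after TM+NAC, against 3383, 3830, 3947, 5007 and 4192 CPM in Control. Its groups overlapped through Control library 1, at a log2 fold of −0.30 ± 0.14 (adjusted p = 0.779). The folds of these 7 genes were also all negative in TM+NAC vs NAC, with a median of −0.28, and in TM+NAC vs TM, with a median of −0.22. Without NAC library 4, TM+NAC vs NAC gave a median of −0.06, with 6 of 7 negative.

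Of 13 further assembly factors listed, 11 were tested, from 3.99 FPKM (Acad9) to 26.8 FPKM (Tmem70), and 0 passed in any comparison. After NAC 9 of the 11 had a negative fold, with a median of −0.07, close to the Ndufaf genes. Dmac1, a membrane arm assembly factor, had 16.5, 17.3, 16.2, 10.5 and 17.3 CPM after NAC, against 20.9, 21.4, 17.1, 15.8 and 19.1 CPM in Control. NAC library 4 was again low, the groups overlapped, and the log2 fold was −0.28 ± 0.12 (adjusted p = 0.638), and −0.16 without NAC library 4. Timmdc1, another one, had 26.5, 30.6, 25.9, 25.2 and 27.4 CPM after TM+NAC, against 23.4, 24.2, 21.2, 24.1 and 21.1 CPM after NAC. These groups did not overlap, against 1.44% of tested genes in this direction, and the log2 fold was 0.25 ± 0.09 (adjusted p = 0.409). Of the 11 in TM+NAC vs NAC, 6 had a positive and 5 a negative fold, with a median of 0.05. Tmem126b, of the Ndufaf1 assembly complex, had a log2 fold of 0.15 ± 0.09 after NAC and of 0.05 without NAC library 4, the highest of the 20 libraries for this gene.

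Of 8 listed regulators of nuclear respiratory genes, 5 were tested and 0 passed. After NAC their folds ran from −0.14 to 0.18, with a median of −0.02. Esrra, an orphan nuclear receptor that acts on genes of oxidative metabolism, had 86.9, 91.6, 88.1, 93.2 and 85.1 CPM after TM+NAC, against 67.8, 82.9, 73.9, 50.8 and 78.7 CPM after NAC. Each TM+NAC library lay above each NAC library, against 1.44% of tested genes, at a log2 fold of 0.33 ± 0.12 (adjusted p = 0.409). The other 4 tested regulators had negative folds in TM+NAC vs NAC, down to −0.21, and the median of the 5 was −0.11. Dmac1, Timmdc1, Tmem126b and Esrra were picked from these lists after their values were seen.

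Markers of other cells also differed between the groups. Neuron markers, 7 of 20 tested and none at 0 in every library, summed to 126 ± 17.8 CPM after TM+NAC, 79.3 ± 32.9 CPM after TM, 114 ± 53.4 CPM after NAC and 19.1 ± 3.36 CPM in Control (SD, n = 5 each). NAC library 4 held 19.1 CPM of them and the other NAC libraries 130 to 146 CPM, so the library with the lowest subunits was the NAC library at the Control level. TM library 1, lowest of the TM libraries for the subunits, likewise held 21.4 CPM, and the other TM libraries 86.1 to 99.8 CPM. The Control libraries, however, held 15.2 to 23.5 CPM of neuron markers with subunit deviations from −0.27 to 0.29. Control library 2, with the highest subunit deviation of the 20 libraries, held 21.0 CPM. Slow-fibre markers, 10 of 10 tested, summed to 5226 ± 1184 CPM after TM+NAC, 5482 ± 1496 CPM after TM, 4457 ± 739 CPM after NAC and 5451 ± 1049 CPM in Control, with 3407 CPM in NAC library 4 and 7237 CPM in Control library 2. The lowest sum was 3060 CPM in TM library 4, where the subunit deviation was 0.06, and TM+NAC library 5 held 3883 CPM with a deviation of 0.04. Gene by gene, the median log2 fold of the 10 slow-fibre markers against Control was −0.52 after TM+NAC, −0.31 after TM and −0.37 after NAC. By these medians TM+NAC was the lowest group, and by the sums NAC was. Cartilage markers (1 of 5 tested, all 5 summed) came to 28.4 ± 5.41 CPM after TM+NAC, 7.42 ± 3.71 after TM, 9.69 ± 5.82 after NAC and 7.96 ± 3.14 in Control. Astrocyte and oligodendrocyte markers (3 of 11 tested, all 11 summed) came to 159 ± 29.9 CPM after TM+NAC, 112 ± 26.0 after TM, 128 ± 32.2 after NAC and 84.6 ± 32.8 in Control. The part of these markers in the subunit values was not tested.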

How the data were processed

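Poly(A)-selected RNA of 20 gastrocnemius libraries was sequenced with a strand-marking dUTP kit, per the labels' protocols. The submitters' processing notes name cutadapt 1.9, FastQC, HISAT2 2.2.1, StringTie and GRCm38. No source used here gives the counting tool, its strand setting or its annotation. The deposited table gives, per the file headers, a read count and an FPKM value per gene and library, and no column was left unmapped.

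Counts were scaled by TMM and fitted with edgeR 4.0.16 (R 4.3.3) over all 4 groups, for 9696 genes with a mean of at least 1 FPKM, with two-sided quasi-likelihood tests and Benjamini-Hochberg adjustment over all of them (threshold 0.05). DESeq2 1.42.0 on the counts and limma 3.58.1 on log2(FPKM + 1) were alternatives, and the fit was tested on simulated data. Levels per library are CPM of the TMM-scaled library, and deviations use log2(CPM + 0.5). Transcript lengths are those of the principal transcript in GENCODE M21, the longest one where a gene has several, and promoters come from RefSeq, GRCm38.p6. Among the subunits the longest by this rule was Ndufb2, at 4371 nt.

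Members and lists were chosen with earlier results of these data known, among them the lower complex I transcripts after NAC, so that direction is not independent evidence. The named genes are all Ndufaf genes, the 7 core subunits, the 5 smallest p values of each comparison and the highest and lowest FPKM. Others, such as Ndufb1-ps, Ndufa12-ps, mt-Nd6 and Ndufa2, were chosen after their values were seen. The values of 1 member are not reported here, though counts and medians over the members include it. The labels do not say that libraries are separate animals, so p-values measure the spread between libraries, which may be technical. The TM+NAC, TM and NAC comparisons with Control share its 5 libraries.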

Additional observations from a re-analysis of the deposited data

Results flagged for a closer look

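Of 152 groups of 5 values examined, 5 held a sample far from the other 4 by Dixon's test, and chance alone gives about 1 in 20. NAC library 4 accounts for 2 of them: Ndufb10 was at 101 CPM there, against 160 CPM in the next library of its group, and Ndufs1 was at 469 CPM, against 369 CPM in the next. In Control library 2, Ndufa4 was at 432 CPM and the next library at 370 CPM. In TM+NAC library 4, Ndufaf7 was at 14.1 CPM and the next library at 16.2 CPM. In TM library 1, the mean log2 deviation of the assembly factors was −0.188 and the next library's −0.0124.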

How the results depend on the processing

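In each of the 35 alternatives run, 0 of 45 members passed in each of the 6 comparisons. The subunit median in NAC vs Control stayed negative, from −0.36 to −0.17 leaving out one library and from −0.30 to −0.09 otherwise. In TM+NAC vs NAC it stayed positive, from 0.15 to 0.38 and from 0.09 to 0.37. Leaving out NAC library 4 and Control library 2 together, the assembly factor median in NAC vs Control was 0.031 and the subunit interaction 0.15. The length offset without NAC library 4 gave 0.0031 and 0.11, and the length offset alone an assembly factor interaction of −0.069. The assembly factor median in TM+NAC vs NAC ran from 0.044 to 0.16 leaving out one library and was −0.014 with the length offset. On log2(FPKM + 1) and log2(FPKM + 0.1), the assembly factor median in TM+NAC vs Control was 0.13 and 0.14, where the median of all tested genes was 0.09 and 0.11. The cause was not tested. The length offset and the removal of both libraries were chosen after seeing the data.

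Signs turned for single genes, none of them past the threshold. In NAC vs Control without NAC library 4 and Control library 2, Ndufaf7 was 0.036, Ndufs1 −0.057, Ndufaf6 0.026, Ndufaf2 0.088, Ndufaf3 0.11 and Ndufaf8 0.11. The length offset gave Ndufaf6 0.11, Ndufaf2 0.20 and Ndufaf8 0.12. With NAC library 4 also out it gave Ndufs1 −0.049, Ndufaf6 0.037, Ndufaf2 0.092, Ndufaf3 0.016 and Ndufaf8 0.10. On log2(FPKM + 1), Ndufaf6 was 0.038, Ndufaf2 0.040 and Ndufaf8 0.015. On log2(FPKM + 0.1), they were 0.041, 0.067 and 0.016. Ndufaf6 was 0.0058 among genes of at least 5 FPKM. In TM+NAC vs Control on the same FPKM scales, Ndufaf4 was 0.032 and 0.034, and Ndufa4 0.0429 and 0.0431. Leaving out one library at a time, NAC vs Control ran from −0.11 to 0.084 for Ndufaf2, −0.096 to 0.035 for Ndufaf6, −0.13 to 0.036 for Ndufaf8 and −0.037 to 0.079 for Ndufs1.

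Same-numbered libraries of different groups had a median r of 0.050 (−0.27 to 0.38; 11 of 30 pairs over 0.1), against −0.016 for differently numbered ones (26 of 120 over 0.1). As not every pair was over 0.1, the numbers were not taken to pair the libraries. This rule cannot exclude that some of them are paired. With the replicate number as a block, the subunit median in NAC vs Control was −0.29 and 0 members passed. Subunits at an unadjusted p under 0.05 numbered 20 with the block, against 14 without it, in NAC vs Control (4.23% against 3.52% of tested genes), 20 against 11 in TM+NAC vs NAC (6.0% against 4.98%) and 10 against 3 in the interaction (3.88% against 3.51%).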
